A study of Arabidopsis thaliana with 12 samples.

Results

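The comparison described here set shoots of wild-type (WT) Arabidopsis thaliana grown in low nitrogen (low N) against WT shoots of the control condition, across the mature microRNAs (miRNAs) listed for small RNA libraries. It used 3 low N and 3 control libraries of ecotype Col-0, chosen by their labels, from 12 libraries in all. The other 6 libraries came from hasty knockout (hasty-KO) shoots in the same 2 conditions (3 low N and 3 control) and served to estimate the spread and to test where the low N change differed between genotypes. Seedlings were 10 days old, with 5 days on standard nutrients followed by 5 days on low N. The labels give that same growth text for the control libraries so the control medium is not known from them, and they do not give the nitrogen concentrations, the hasty allele or whether seedlings were pooled. Whole shoots were used, so that fewer cells of a type and less miRNA per cell cannot be told apart. No mRNA marker of shoot tissue was measured in these libraries.

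Plant miRNAs are cut from hairpin transcripts by DICER-LIKE1 as a duplex of a 5p and a 3p arm, of which 1 strand is loaded into ARGONAUTE1 and guides cleavage or repression of complementary mRNAs. Plants that lack a nutrient change the level of miRNAs that act on its transporters, its storage or its spending: the miR169 family acts on NF-YA transcription factors that promote nitrate transporter expression, miR395 on sulfate assimilation, miR399 and miR827 on phosphate homeostasis, and miR397, miR398 and miR408 on copper proteins. HASTY is the plant relative of exportin 5 and is needed for normal levels of many miRNAs.

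The table lists 390 names, 216 of them known miRNAs and 174 predicted ones with NovelmiRNA numbers. The 216 known names were all matched by product name to the RefSeq annotation of TAIR10.1, and names with the same mature sequence were treated as 1, using the highest count among them in each library. This left 325 mature sequences, 165 known and 160 predicted. The mature sequences that carry the results are printed here 5′ to 3′ in lower case, credited to RefSeq (TAIR10.1), with bases 2 to 8 (the seed) in capitals. Sequences with the same seed stand together, so that members of a family can be compared by their letters. The first set holds families with members that fell.
miR397a: uCAUUGAGugcagcguugaug
miR397b: uCAUUGAGugcaucguugaug
miR398a-3p: uGUGUUCUcaggucaccccuu
miR398b-3p and miR398c-3p: uGUGUUCUcaggucaccccug
miR408-5p: aCAGGGAAcaagcagagcaug
miR395a, miR395d and miR395e: cUGAAGUGuuugggggaacuc
miR395b, miR395c and miR395f: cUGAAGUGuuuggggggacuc
miR169a-5p: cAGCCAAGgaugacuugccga
miR169b-5p and miR169c: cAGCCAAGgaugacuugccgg
miR169h to miR169n: uAGCCAAGgaugacuugccug

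The second set holds sequences that rose, some of them beside a relative of the same seed that did not pass the test.
miR165a-3p and miR165b: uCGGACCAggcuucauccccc
miR166a-3p and its identical copies: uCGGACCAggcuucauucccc
miR164a and miR164b-5p: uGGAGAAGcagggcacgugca
miR164c-5p: uGGAGAAGcagggcacgugcg
miR156h: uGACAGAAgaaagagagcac
miR156a-5p and its identical copies: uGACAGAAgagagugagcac
miR167c-5p: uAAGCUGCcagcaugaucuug
miR824-5p: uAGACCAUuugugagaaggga
miR842: uCAUGGUCagauccgucaucc

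The third set holds a pair of passenger arms of the miR157 precursors that share a seed, and a pair of known names with large falls.
miR157a-3p and miR157b-3p: gCUCUCUAgccuucugucauc
miR157c-3p: gCUCUCUAuacuucugucacc
miR781a: uUAGAGUUuucuggauacuua
miR847: uCACUCCUcuucuucuugaug

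The deposited counts summed to between 2299445 and 2539507 in the low N libraries and to between 2808655 and 3226269 in the control libraries. Reads listed under several names are counted several times in these totals. With names of 1 sequence taken as 1, the totals were 947733 to 1123114 in low N and 1281860 to 1494215 in control libraries. Predicted names with the counts of a known name, described below, were kept apart, so these totals still hold their counts under both names. Levels below are CPM (counts scaled to a common library size) on those collapsed totals with TMM factors, given as mean ± SD with n = 3. A mature sequence is called changed where edgeR's quasi-likelihood test gave a Benjamini-Hochberg adjusted p under 0.05 over the 216 sequences that passed the filter on low counts. Replicates are biological by their labels, and nothing says how separate the cultures were. A mature sequence was listed at 0 in at least 1 WT library in 179 cases, 75 of them among the 216 tested. In 32 instances, over 27 sequences, a single library of a group was at 0 while both others held 50 or more counts. Such zeros are given here as listed at 0 and not as absence.

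Low N changed 51 of the 216 mature sequences tested (23.6%): 18 were higher (8.33%) and 33 lower (15.3%). Of the 125 known sequences tested, 33 were called (26.4%), 12 of them higher (9.6%) and 21 lower (16.8%). Of the 91 predicted sequences tested, 18 were called (19.8%), 6 higher (6.59%) and 12 lower (13.2%). The median log2 change of all tested sequences was −0.06. The changes were often modest: 22 of the 51 were under 2-fold and 16 were 4-fold or more. Part of those 16 are sequences listed at 0 throughout a group, for which no fold is given below. Of the 51, 43 were above 0 in all 6 WT libraries. In 48 of the 51 the low N and control libraries did not overlap, which was also true of 86 of all 216 tested (39.8%). The balance of directions depended on the scaling. With median-of-ratios size factors 31 were higher and 29 lower, with DESeq2 40 were higher and 36 lower, with the most abundant sequence left out 27 were higher and 30 lower, and with plain library totals 15 were higher and 41 lower. The median of all sequences moved with it, to 0.056 with median-of-ratios size factors and to −0.19 with library totals. Each change below is therefore read against a median near 0 that could shift by that amount.

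**Figure D1:**
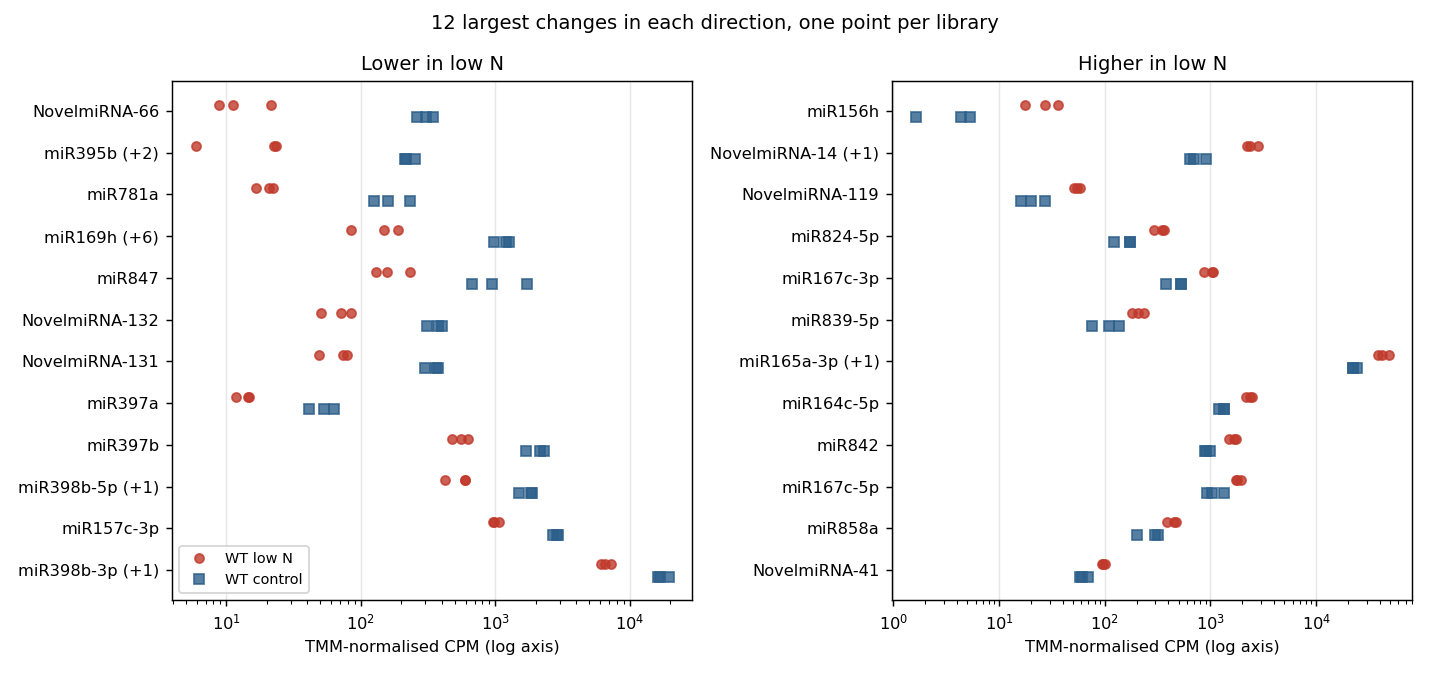
The 12 largest changes in each direction among called sequences that were above 0 in all 6 WT libraries and did not overlap between groups. Each point is a library, circles for WT low N and squares for WT control, on a log axis of TMM-normalised CPM, and (+n) counts further names of the same sequence. The low N and control points of each row lie apart, as for miR395b at 17.3 CPM in low N against 226 CPM in control and miR165a-3p at 43042 CPM in low N against 23059 CPM in control.

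Most miRNAs tied to copper fell: 6 of the 8 listed were called lower. In Arabidopsis their transcription is raised by the factor SPL7 when copper is scarce, and they repress copper-containing proteins. Of 8 members, 7 were tested, and 6 were lower and 0 higher, beside 15.3% lower among all sequences tested; their median log2 change was −1.41, against −0.06 over all. The families of this list were also among those reported as lowered by nitrogen starvation in earlier work, and the lists were chosen with earlier results of these data known.

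miR398, which acts on the copper/zinc superoxide dismutases CSD1 and CSD2 and on their copper chaperone, gave the smallest adjusted p of the sequences above 0 in all 6 WT libraries. The sequence shared by miR398b-3p and miR398c-3p had 6071, 7186 and 6488 CPM in the low N libraries, against 16258, 16666 and 19377 CPM in the control libraries. All 3 low N libraries lay below all 3 control libraries. It averaged 6582 ± 564 CPM in low N and 17434 ± 1695 CPM in control, or 2.65-fold lower, with a log2 change and SE of −1.41 ± 0.11 and an edgeR adjusted p of 5.3e-05. The copies lie on chromosome 5, miR398b-3p at positions 4691107 to 4691127 on the plus strand, within AT5G14550 on the opposite strand, and miR398c-3p at positions 4694778 to 4694798 on the plus strand.

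The other arm of these precursors fell too. miR398b-5p and miR398c-5p, of 1 sequence, had 598, 424 and 595 CPM in low N and 1856, 1503 and 1849 CPM in control, a log2 change of −1.69 ± 0.16 (edgeR adjusted p = 0.0001). miR398a-3p, which shares the seed GUGUUCU, had 511, 603 and 619.6 CPM in low N and 867, 956 and 953 CPM in control. Its groups did not overlap, and its log2 change was smaller, at −0.68 ± 0.10 (edgeR adjusted p = 0.00088). The miR398a-5p arm had at most 8 counts in a WT library and was not tested.

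miR397, which acts on laccases, copper enzymes of lignin polymerisation, fell in both of its forms. miR397b (chromosome 4, positions 7878730 to 7878750, minus strand) had 476, 629 and 555 CPM in low N and 2130, 1674 and 2297 CPM in control. The highest low N library was below the lowest control library, and the log2 change was −1.88 ± 0.17 (edgeR adjusted p = 9.3e-05), or 3.68-fold lower. miR397a, at a far lower level, had 14.7, 11.9 and 14.4 CPM in low N and 63.3, 41.3 and 52.9 CPM in control, a log2 change of −1.93 ± 0.38 (edgeR adjusted p = 0.0048). The paired forms thus had nearly the same log2 change at levels of 553 and 13.7 CPM in low N.

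miR408 acts on the blue copper protein plantacyanin and on laccases through its 3p arm. miR408-5p, the other arm, had 2828, 2330 and 2774 CPM in low N and 5087, 5211 and 5506 CPM in control, and was 1.99-fold lower (log2 change −0.99 ± 0.16, edgeR adjusted p = 0.0016). For miR408-3p the mean was 729 CPM in low N and 1013 CPM in control, with a log2 change of −0.47 ± 0.15 that did not pass the test (edgeR adjusted p = 0.055). It was the single tested member of the copper list not called, and its libraries did not overlap between the groups either. Across 27 alternative settings, 6 or 7 copper-linked members were lower and none was higher.

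miR395, which acts on ATP sulfurylases and on the sulfate transporter SULTR2;1, is known to be raised when sulfate is short. The sequence of miR395b, miR395c and miR395f had 5.90, 22.5 and 23.3 CPM in low N and 251, 212 and 215 CPM in control. It averaged 17.3 ± 9.84 CPM in low N and 226 ± 21.4 CPM in control, a log2 change of −3.70 ± 0.65 (edgeR adjusted p = 0.0027), or 13.0-fold lower. The low N counts behind it were 6, 19 and 21 reads, so counting error is large there. The sequence of miR395a, miR395d and miR395e, with the same seed UGAAGUG, had 6, 5 and 15 counts in low N and 82, 93 and 44 in control. Its means were 9.50 ± 6.20 CPM in low N and 56.3 ± 18.3 CPM in control; the libraries did not overlap, but the log2 change of −2.55 ± 1.06 did not pass the test (edgeR adjusted p = 0.12).

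The miR169 family, which acts on NF-YA transcription factors, had 7 members, all tested; 3 were lower and 0 higher by edgeR (1 higher at an unadjusted p under 0.05 and by DESeq2), or 42.9% lower of 7 against 15.3% over all, with a median log2 change of −0.26. The 3 lower members share the seed AGCCAAG, and the sequence of miR169d to miR169g, whose seed is GAGCCAA, was not called, with 167 ± 21.6 CPM in low N and 200.0 ± 22.7 CPM in control. The seeds differ by an offset of 1 base, as miR169d and miR169a-5p match apart from their end bases. miR169a-5p had 85.5, 114 and 121 CPM in low N and 164, 161 and 168 CPM in control, a log2 change of −0.62 ± 0.16 (edgeR adjusted p = 0.018). It lost the call without low N replicate 2 and without control replicate 1 or 2 (adjusted p up to 0.065), and also with median-of-ratios size factors (0.056), with every name as its own row (0.075) and with the 6 WT libraries alone (0.079). With the replicate number as a block the call was lost too. The sequence of miR169b-5p and miR169c had 36.4, 41.5 and 32.2 CPM in low N and 71.1, 77.3 and 79.7 CPM in control, a log2 change of −1.05 ± 0.24 (edgeR adjusted p = 0.011). Its call was lost when the counts of the 2 names were averaged (adjusted p = 0.10) or summed (0.072), and with every name as its own row. In 1 library miR169b-5p was listed at 0 while miR169c held 50 or more counts. The 3p arms of miR169a and miR169b were not called, with log2 changes of −0.25 and −0.24.

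The sequence shared by miR169h to miR169n was the largest fall of this family, but its size depends on which of the 7 names is read. Taken as the highest count, it had 148, 189.9 and 84.4 CPM in low N and 1265, 976 and 1190 CPM in control, a log2 change of −3.02 ± 0.37 (edgeR adjusted p = 0.00043), or 8.11-fold lower. Names of a single sequence elsewhere in the table mostly had near-equal counts, but here some differed by round amounts. In WT control replicates 1, 2 and 3, miR169h had 1428, 1443 and 1038 counts where miR169k had 428, 443 and 438, a difference of 1000, 1000 and 600. In the other 9 libraries those names had equal counts. miR169i was exactly 1000 counts above NovelmiRNA-132 in all 3 WT control libraries and 100 above it in low N replicate 1, and equal to it in the other 8 libraries. miR169l exceeded miR169n by 100, 100 and 0 counts in low N replicates 1, 2 and 3, and by 989, 997 and 995 in control replicates 1, 2 and 3. The source of these differences was not tested. Without miR169h, miR169i and miR169l, the same sequence averaged 68.3 ± 16.1 CPM in low N and 362 ± 45.6 CPM in control, a log2 change of −2.35 ± 0.30 (edgeR adjusted p = 0.00044), or 5.10-fold lower. The direction and the call were kept and the fold was smaller by over 1.5 times.

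**Figure D2:**
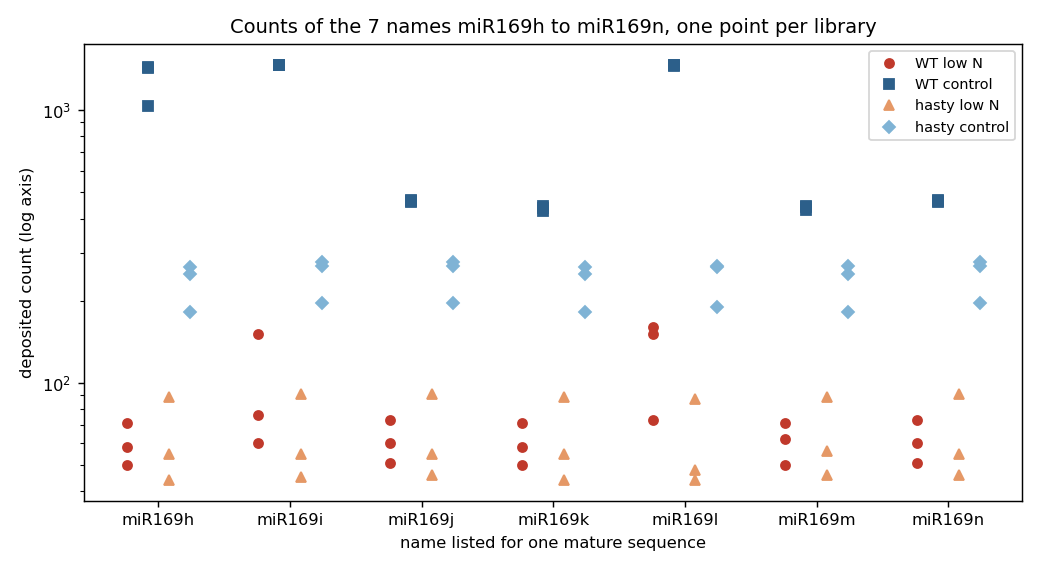
Deposited counts of the 7 names listed for the sequence of miR169h to miR169n, 1 point per library, on a log axis. From left to right within a name stand WT low N, WT control, hasty low N and hasty control. In WT control libraries miR169h, miR169i and miR169l stand at 1038 to 1465 counts, while miR169k stands at 428 to 443; in the hasty libraries the names stand level.

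The list of families that earlier work gave as lowered by nitrogen starvation (miR169, miR171, miR395, miR397, miR398, miR399, miR408, miR827 and miR857) had 28 members, of which 27 were tested. Of these 11 were lower and 0 higher by edgeR (2 higher at an unadjusted p under 0.05 and 3 by DESeq2), beside 15.3% lower over all, with a median log2 change of −0.62. The 11 are the 6 copper-linked sequences, the 3 of miR169, miR395b and the 5p arm of miR170 and miR171a, so the counts of this list restate those above. That arm, miR170-5p and miR171a-5p of 1 sequence, lies opposite the strand that acts on the GRAS factors of the HAM group. It had 440.2, 468 and 471 CPM in low N and 887, 779.9 and 1015 CPM in control, a log2 change of −0.96 ± 0.10 (edgeR adjusted p = 0.00019). The active arm miR171a-3p averaged 761 CPM in low N and 1093 CPM in control, with a log2 change of −0.52 ± 0.21 and an adjusted p of 0.10, and its libraries overlapped.

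The list of families given as raised by nitrogen starvation (miR156, miR160, miR780, miR826, miR842, miR846 and miR5090) had 14 members, of which 13 were tested. In it 3 were higher (miR156b-3p, miR156h and miR842) and 1 lower (miR156c-3p), with a median log2 change of −0.14 and beside 8.33% higher over all. No name of miR780, miR826 or miR5090 was among the tested sequences.

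Phosphate-linked miRNAs gave no call: of 9 members 6 were tested, and 0 were higher and 0 lower by edgeR, against 23.6% called over all, with a median log2 change of 0.09. With 6 sequences, 0 is not far from that share. The most abundant was miR827, which acts on the SPX-domain ubiquitin ligase NLA, with 735, 878 and 696 CPM in low N and 566, 439 and 729 CPM in control. Its libraries overlapped, and its log2 change was 0.41 ± 0.20 (edgeR adjusted p = 0.19). The sequence of miR399b and miR399c-3p, which acts on the ubiquitin-conjugating enzyme PHO2, had 308 ± 3.12 CPM in low N and 411 ± 87.0 CPM in control (log2 change −0.41 ± 0.17, edgeR adjusted p = 0.11). At an unadjusted p under 0.05 none was higher and 2 were lower, DESeq2 called 1 higher and 1 lower, and limma none.

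**Figure D3:**
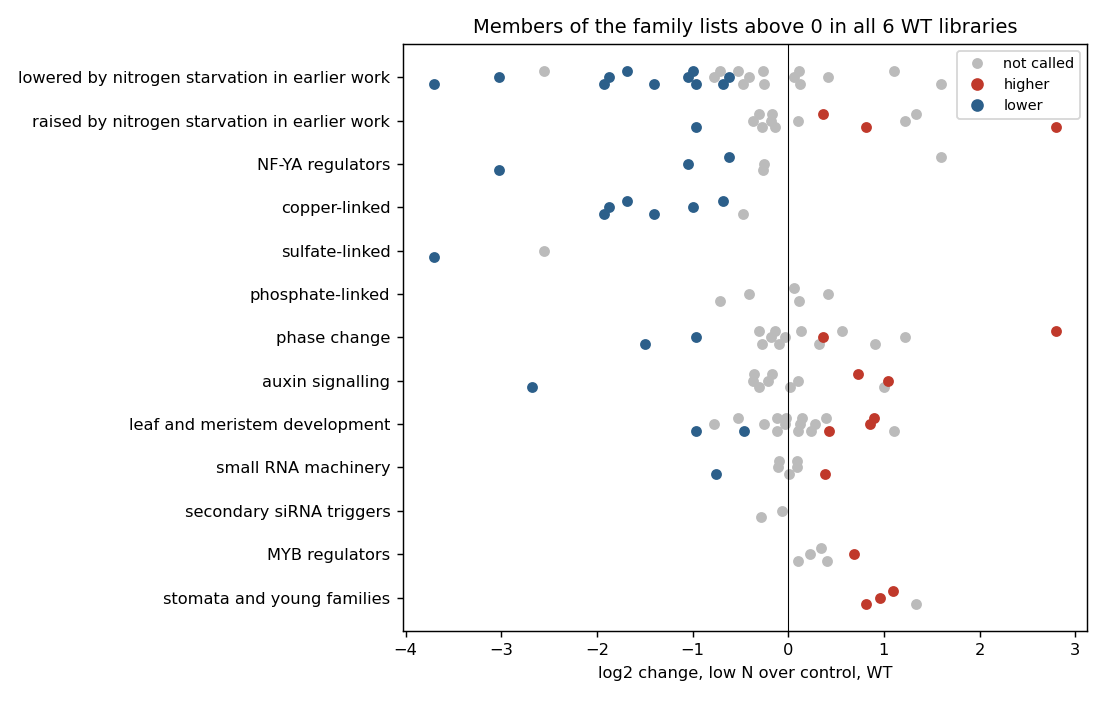
Log2 change of low N over control in WT for the members of each family list that were above 0 in all 6 WT libraries, 1 point per mature sequence. Red points passed the test as higher, blue points as lower and grey points did not pass. The copper row has 6 blue points and 1 grey point, all left of 0, and the row of stomatal and young families has 3 red points and no blue one.

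Regulators of leaf and meristem patterning held members that rose and members that fell. The list of miR164, miR165, miR166, miR171, miR319 and miR396 had 20 members, all tested, with 3 higher and 2 lower (25% called, close to the 23.6% over all) and a median log2 change of 0.04. With median-of-ratios size factors, with DESeq2 and with known names alone 7 were higher and 2 lower. miR165 and miR166 act on the class III HD-ZIP factors that set the upper side of leaves and the meristem. The sequence of miR165a-3p and miR165b had 41881, 48615 and 38631 CPM in low N and 22520, 24559 and 22097 CPM in control. All low N libraries were above all control libraries, and the log2 change was 0.90 ± 0.12 (edgeR adjusted p = 0.00058), or 1.87-fold higher. miR165a-3p lies on chromosome 1, positions 78932 to 78952, and miR165b on chromosome 4, positions 369856 to 369876, both on the minus strand.

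The sequence of miR166a-3p and its 6 identical names has the same seed CGGACCA and was the most abundant in the table. It had 205977, 234710 and 210561 CPM in low N and 184888, 174862 and 193806 CPM in control. Its libraries did not overlap either, but the log2 change of 0.23 ± 0.10 did not pass the test (edgeR adjusted p = 0.13). The passenger arm miR166a-5p and miR166b-5p went the other way, with 928, 865 and 1058 CPM in low N and 1337, 1167 and 1439 CPM in control (log2 change −0.47 ± 0.11, edgeR adjusted p = 0.015). Its call was lost without low N replicate 1 (adjusted p = 0.057) or 2 (0.092), and with every name as its own row.

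miR164, which acts on NAC factors of the CUC group that hold organ boundaries, rose in both of its 5p forms. miR164c-5p (chromosome 5, positions 9852684 to 9852704, plus strand) had 2494, 2378 and 2173 CPM in low N and 1351, 1198 and 1338 CPM in control, a log2 change of 0.86 ± 0.11 (edgeR adjusted p = 0.00045). The sequence of miR164a and miR164b-5p, with the same seed GGAGAAG, had 8500, 9893 and 9693 CPM in low N and 6793, 6432 and 7625 CPM in control, a log2 change of 0.43 ± 0.08 (edgeR adjusted p = 0.0038). The 3p arms were not called: miR164c-3p averaged 22.0 ± 4.44 CPM in low N and 19.9 ± 3.58 CPM in control.

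In the auxin list (miR160, miR167, miR393 and miR847) all 11 members were tested, with 2 higher and 1 lower (27.3% called, near the 23.6% over all) and a median log2 change of −0.17. The 2 higher members were the arms of a single precursor. miR167 acts on the auxin response factors ARF6 and ARF8. miR167c-5p had 1785, 1730 and 1957 CPM in low N and 1043, 932 and 1334 CPM in control (log2 change 0.73 ± 0.15, edgeR adjusted p = 0.007), and miR167c-3p had 1050, 875 and 1028 CPM in low N and 522, 381 and 530.5 CPM in control (1.04 ± 0.17, 0.0014). The main form of the family, miR167a-5p and miR167b, had 81944 ± 12074 CPM in low N and 101303 ± 22428 CPM in control. That form did not pass the test, with overlapping libraries and a log2 change of −0.31 ± 0.16 (edgeR adjusted p = 0.21).

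The lower member, miR847, acts on the auxin repressor IAA28. It had 129.7, 157 and 233 CPM in low N and 1714, 671 and 945 CPM in control, or 6.41-fold lower (log2 change −2.68 ± 0.45, edgeR adjusted p = 0.011). The call was lost without low N replicate 1 (adjusted p = 0.057). It was listed at 0 in all 6 hasty libraries. It lies on chromosome 1, positions 2165675 to 2165695, plus strand. miR160a-5p, which acts on ARF10, ARF16 and ARF17, had 6096 ± 931 CPM in low N and 6879 ± 406 CPM in control and was not called.

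The phase-change list (miR156 and miR157, which act on SPL factors of the juvenile-to-adult transition, and miR172, which acts on AP2-like factors) had 17 members, 15 of them tested, with 2 higher and 2 lower (26.7% called, near the 23.6% over all) and a median log2 change of −0.03. The shared 5p sequences of miR156 and of miR157 did not pass the test. The sequence of miR156a-5p to miR156f-5p averaged 2295 CPM in low N and 2525 CPM in control (log2 change −0.14 ± 0.12, edgeR adjusted p = 0.50), and that of miR157a-5p to miR157c-5p 9282 ± 597 CPM in low N and 8484 ± 1670 CPM in control (0.13 ± 0.12, 0.54). The called members were a 5p form of low level and 3p arms. Those 3p arms were not all minor: over the WT libraries miR156b-3p averaged 26266 CPM and the shared miR156 5p sequence 2410 CPM. miR156h, with the seed GACAGAA of that shared 5p sequence, had 37, 23 and 16 counts in low N and 5, 8 and 2 in control. Its mean was 27.1 ± 9.30 CPM in low N and 3.76 ± 1.92 CPM in control, a log2 change of 2.80 ± 0.69 (edgeR adjusted p = 0.016). The call was lost without low N replicate 1 and without control replicate 1 or 3 (adjusted p up to 0.060).

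The passenger arms went in different directions. miR157c-3p had 975, 966 and 1067 CPM in low N and 2919, 2681 and 2890 CPM in control, the groups far apart, with a log2 change of −1.50 ± 0.15 (edgeR adjusted p = 0.00014). miR157a-3p and miR157b-3p, with the same seed CUCUCUA, had 10139, 8742 and 8959 CPM in low N and 7551, 6751 and 7985 CPM in control and did not pass the test (0.32 ± 0.13, edgeR adjusted p = 0.11). miR156c-3p averaged 4523 ± 486 CPM in low N and 8835 ± 1538 CPM in control (log2 change −0.97 ± 0.14, edgeR adjusted p = 0.00088). Its near relative miR156a-3p, with the same seed, had 7535 ± 817 CPM in low N and 8521 ± 1544 CPM in control and overlapping libraries. miR156b-3p, the most abundant miR156 sequence listed, had 29599, 31700 and 27391 CPM in low N and 23315, 21128 and 24464 CPM in control, a log2 change of 0.36 ± 0.07 (edgeR adjusted p = 0.005). With library totals as scaling this call was lost (adjusted p = 0.090).

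The list of miR824, miR822, miR839, miR840, miR842 and miR846, young families known mainly from the Brassicaceae, had 9 members, 7 of them tested. Of these 3 were higher and 0 lower, beside 8.33% higher over all, with a median log2 change of 1.33. miR824 acts on AGL16, a MADS-box factor of the stomatal lineage. miR824-5p (chromosome 4, positions 12625128 to 12625148, plus strand) had 349.8, 359.6 and 294 CPM in low N and 173, 123 and 174 CPM in control, or 2.13-fold higher (log2 change 1.09 ± 0.16, edgeR adjusted p = 0.00088). miR842, which acts on jacalin-related lectins, had 1656, 1508 and 1753 CPM in low N and 905, 895 and 999 CPM in control. Its replicates lay close together in both groups, and its log2 change was 0.81 ± 0.08 (edgeR adjusted p = 0.0001).

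miR839-5p averaged 207 ± 27.5 CPM in low N and 107 ± 30.4 CPM in control (log2 change 0.96 ± 0.25, edgeR adjusted p = 0.021). The call was lost without low N replicate 1 (adjusted p = 0.076). miR846-5p, which also acts on lectin genes, had 39, 34 and 28 counts in low N and 20, 17 and 18 in control; its libraries did not overlap, but the log2 change of 1.33 ± 1.05 did not pass the test (edgeR adjusted p = 0.45). miR822-3p and miR822-5p were listed at 0 in control replicates 2 and 3, with 6312, 3816 and 4657 counts of the 3p arm in low N and 4617, 0 and 0 in control, and no fold is given for them. The median of the list includes these members.

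Further known sequences were higher by small amounts. miR858a, which acts on MYB factors of flavonoid and phenylpropanoid genes, had 450.0, 387 and 474 CPM in low N and 297, 201 and 316 CPM in control (log2 change 0.69 ± 0.20, edgeR adjusted p = 0.033). The call was lost in 6 of 12 fits that left out a library, among them low N replicate 1 (adjusted p = 0.093), low N replicate 3 (0.10) and control replicate 2 (0.0501), the rest being hasty libraries. miR858a was the 1 higher member among 6 tested of the MYB list (16.7% higher, against 8.33% over all), which had none lower and a median log2 change of 0.28. With median-of-ratios size factors and with DESeq2, 4 of the 6 were higher and none lower, and at an unadjusted p under 0.05, 1 was higher and none lower. Its most abundant members were miR159a, with 212666 ± 36088 CPM in low N and 167743 ± 40797 CPM in control, and miR159b-3p, with 153538 ± 29295 CPM in low N and 115727 ± 28216 CPM in control, both with overlapping libraries and not called.

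miR403-3p, which acts on AGO2, had 1537, 1536 and 1821 CPM in low N and 1249, 1102 and 1385 CPM in control (log2 change 0.39 ± 0.11, edgeR adjusted p = 0.033), and its call was lost without low N replicate 1 (adjusted p = 0.057) or 3 (0.12), without control replicate 2 (0.059) and without each of 3 hasty libraries. In the list of regulators of small RNA machinery (miR162, miR168 and miR403) all 7 members were tested, with 1 higher and 1 lower (28.6% called, near the 23.6% over all). The lower one was miR168a-3p, opposite the strand that acts on AGO1, with 551, 529 and 455 CPM in low N and 906, 781 and 906 CPM in control (log2 change −0.76 ± 0.10, edgeR adjusted p = 0.0006). The AGO1-directed strand, miR168a-5p, had 31617 ± 2369 CPM in low N and 29612 ± 2236 CPM in control, and miR162a-3p, which acts on DCL1, had 12966 ± 882 CPM in low N and 13982 ± 2168 CPM in control; neither passed the test.

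Among the remaining falls, miR781a was the largest of a known name outside the lists. It had 20.6, 16.6 and 22.2 CPM in low N and 231, 125 and 159 CPM in control, a log2 change of −3.11 ± 0.46 (edgeR adjusted p = 0.00088), or 8.61-fold lower. miR781a lies on chromosome 1, positions 7423523 to 7423543, plus strand, inside the protein-coding gene AT1G21200 on the same strand. Of 13 tested known sequences with at least 1 name inside a coding gene on its strand it was the single one called, beside 26.4% of all known sequences tested. The difference was not tested. The 13 include the shared miR156 5p sequence, of whose names miR156d-5p alone lies so. They also include miR400, miR5654-3p and miR5654-5p, which lie in the same gene. miR158a-3p averaged 21700 ± 2296 CPM in low N and 33499 ± 7489 CPM in control (log2 change −0.63 ± 0.15, edgeR adjusted p = 0.012), and lost the call without low N replicate 1 (adjusted p = 0.057).

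miR845a, which pairs with the primer-binding sites of retrotransposons, had 195, 286 and 332 CPM in low N and 315, 1044 and 661 CPM in control. Its libraries overlapped, and although it was called (log2 change −1.31 ± 0.38, edgeR adjusted p = 0.033) the call was lost in 10 of 12 fits that left out a library, among them each low N replicate (adjusted p = 0.13, 0.12 and 0.052) and control replicates 2 (0.12) and 3 (0.057). Over all alternatives miR845a kept its call in 12 of 28. The losses included median-of-ratios size factors, no filter on low counts, the 6 WT libraries alone and the replicate number as a block. miR173, which starts the phased siRNAs of TAS1 and TAS2, was called lower through its 2 arms on counts with a gap. miR173-5p had 0 counts in each low N library and 355, 314 and 0 counts in control, and miR173-3p had 0 in each low N library and 44, 54 and 0 in control. Control replicate 3 was thus listed at 0 like the low N group, the groups overlap, and no fold is given. The call of miR173-5p (edgeR adjusted p = 0.019) was lost with limma, with the replicate number as a block and without low N replicate 1 or 2 (adjusted p up to 0.072). That of miR173-3p (0.025) was lost with limma, without any 1 of the low N libraries, without control replicate 1 or 2 and without hasty low N replicate 1 or 2 (adjusted p up to 0.066). The hasty libraries held 227 to 244 counts of miR173-5p in low N and 340 to 395 in control. The list of siRNA triggers (miR161, miR173, miR390, miR400 and miR828) had 8 members, 7 of them tested, with 0 higher (by edgeR, by DESeq2 and at an unadjusted p under 0.05 alike) and 2 lower, the arms of miR173 (28.6% called, near the 23.6% over all). In the fit without control replicate 3, 2 members were higher. With limma, with the replicate number as a block and without low N replicate 1 or 2 none was lower. With the 6 WT libraries alone 4 members were tested, and neither arm of miR173 was among them. Both arms thus passed the filter on low counts through the hasty libraries. In that list miR390a-5p had 659, 0 and 659 counts in low N and 0, 0 and 865 in control.

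**Figure D4:**
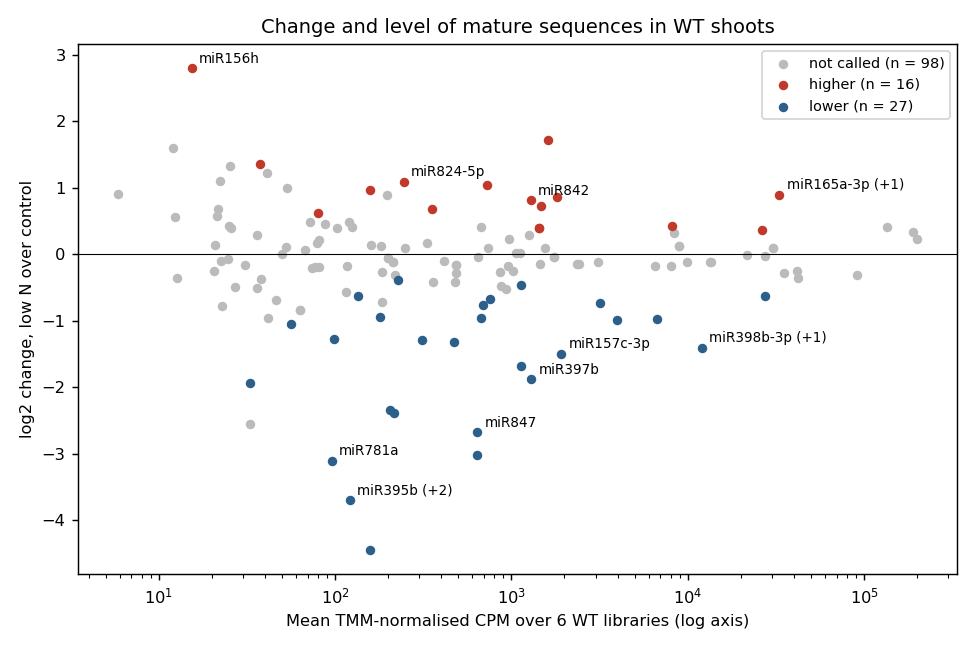
Log2 change of low N over control against the mean level in the 6 WT libraries (log axis) for sequences tested and above 0 in all 6, red for higher, blue for lower and grey for not called. Called sequences appear at all levels above 10 CPM, the 16 higher ones reach a log2 change of 2.80 and the 27 lower ones one of −4.45.

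Level, arm and sequence were also compared, as a description of the calls. Below a mean of 10 CPM none of 18 tested sequences was called in either direction. At 10 to 100 CPM 4 of 86 were higher and 10 lower, at 100 to 1000 CPM 5 of 62 were higher and 14 lower, and at 1000 CPM or more 9 of 50 were higher and 9 lower. Of the 10 most abundant sequences miR165a-3p was the single one called. Among the 10 was NovelmiRNA-39, which has the counts of miR168a-5p in every library, so the share given next holds those counts under both names. These 10 held 76.5% ± 1.12 of the counts in low N libraries and 72.8% ± 0.469 in control libraries, a difference of 3.71 points that an exact two-sided permutation test gave p = 0.1, the smallest that 3 against 3 libraries allow.

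Both arms were tested for 42 pairs. A sequence shared by several precursors stands in several pairs, as the miR156 5p sequence does, so the pairs are not separate cases. The called sequence of miR170-5p and miR171a-5p likewise counts in the pairs of both precursors. In 3 pairs (miR167c, miR173 and miR398b with miR398c) both arms were called in the same direction, in 15 a single arm was called, in 24 neither, and in none were the arms called in opposite directions. The signs of the 2 log2 changes matched in 24 of 42 pairs. By first base, 12 of the 73 tested known sequences that begin with U were higher and 11 lower. Of those that begin with A, C or G (16, 16 and 20 tested), 0 were higher and 2, 5 and 3 were lower. All 12 known sequences that rose thus began with U, as did 73 of the 125 known sequences tested. Over all 125, 9.6% were higher, and no test was made of the count by first base. There were 19 seeds shared by 2 or more tested sequences, and 4 of them had 2 or more called members: AGCCAAG of miR169 and GUGUUCU of miR398 and CAUUGAG of miR397, all lower, and GGAGAAG of miR164, higher. No seed had members called in both directions.

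No sequence or position was at hand for the predicted names. The largest fall among those above 0 in all WT libraries was NovelmiRNA-66, with 8.84, 21.4 and 11.1 CPM in low N and 341, 262 and 307 CPM in control (log2 change −4.45 ± 0.46, edgeR adjusted p = 0.00045). The largest rise was that of NovelmiRNA-14 and NovelmiRNA-15, which have equal counts, with 2809, 2384 and 2195 CPM in low N and 645, 900.4 and 699.7 CPM in control (1.72 ± 0.33, 0.0043). NovelmiRNA-131 and NovelmiRNA-132 followed the miR169 sequence: their log2 changes were −2.35 and −2.40, and NovelmiRNA-131 has the counts of miR169m in all 12 libraries.

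There were 10 predicted names with the counts of a known name in all 12 libraries, among them NovelmiRNA-1 (miR403-3p) and NovelmiRNA-39 (miR168a-5p), and they held 69.7% of all counts of predicted sequences in the WT libraries. With these 10 taken off the list of calls, and without a new fit, 49 called sequences remained, 17 higher and 32 lower. NovelmiRNA-132, which had the counts of miR169i apart from the round differences given above, is still among them. NovelmiRNA-119 (54.4 ± 3.55 CPM in low N and 21.0 ± 5.39 CPM in control, log2 change 1.37 ± 0.42, edgeR adjusted p = 0.042) lost its call in 10 of 12 fits that left out a library, all except hasty control replicates 1 and 3, with an adjusted p up to 0.14 without WT control replicate 3. Over all alternatives it kept the call in 11 of 27. NovelmiRNA-41 averaged 96.7 ± 2.78 CPM in low N and 62.7 ± 5.82 CPM in control (0.62 ± 0.18, edgeR adjusted p = 0.031), and lost its call without low N replicate 1, without any 1 of the 3 control libraries and without hasty control replicate 2 (adjusted p up to 0.12). The other called predicted sequences, NovelmiRNA-28, NovelmiRNA-70, NovelmiRNA-80, NovelmiRNA-118 and NovelmiRNA-171, were lower, with log2 changes of −1.27, −0.73, −0.39, −1.29 and −0.94. NovelmiRNA-80 kept its call in 2 of 27 alternatives (adjusted p up to 0.40) and NovelmiRNA-171 in 9 of 27 (up to 0.14); each lost it without any 1 of the 6 WT libraries. NovelmiRNA-70 lost its call without low N replicate 1 (adjusted p = 0.057), while NovelmiRNA-28 and NovelmiRNA-118 kept theirs in all 27.

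A set of 6 predicted sequences was listed at 0 in all 3 libraries of a group and at 20 or more counts in all 3 of the other. They were chosen for that gap, so nothing is read from their calls. NovelmiRNA-166 had 693, 445 and 511 counts in low N and 0 in each control library, and NovelmiRNA-53 had 118, 94 and 114 counts in low N and 0 in each control library. NovelmiRNA-60 had 0 in each low N library and 44, 53 and 30 counts in control, NovelmiRNA-74 0 in low N and 86, 88 and 94 in control, NovelmiRNA-75 0 in low N and 61, 81 and 69 in control, and the equal rows NovelmiRNA-143, NovelmiRNA-144 and NovelmiRNA-145 had 0 in low N and 109, 107 and 134 in control. NovelmiRNA-166 was also listed at 0 in the hasty control libraries and at 371 to 420 counts in hasty low N. NovelmiRNA-74, NovelmiRNA-75 and NovelmiRNA-143 were at 0 in all 6 hasty libraries and so passed the filter on low counts through the WT control libraries alone. All 3 lost their calls with DESeq2 (adjusted p = 0.12, 0.14 and 0.10), and NovelmiRNA-75 also without WT control replicate 1 or 2 (up to 0.053). No fold is given for these names, since a 0 in this table can be a name not listed for a library. NovelmiRNA-53 lost its call in 9 of the 12 fits that left out a library, those without each of the 3 low N libraries, the 3 WT control libraries and the 3 hasty low N libraries (adjusted p up to 0.11). Over all alternatives that gave a value it kept the call in 12 of 25.

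The change in WT was set beside that in hasty shoots to ask where the genotypes differed. In hasty, 42 sequences were called between low N and control, of which 31 were among the 51 called in WT, all in the same direction. Over 123 sequences above 0 in all 12 libraries, the log2 changes in the 2 genotypes had a Pearson correlation of 0.845 and a Spearman correlation of 0.767, and over all 216 tested of 0.419 and 0.601. These describe sequences that share libraries and normalisation and carry no p. miR398b-3p had log2 changes of −1.24 in hasty and −1.41 in WT, miR397b of −1.53 in hasty and −1.88 in WT, and miR842 of 0.88 in hasty and 0.81 in WT.

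The difference between the genotypes was itself tested for every sequence, and 3 of 216 passed (1.39%), all with a lower log2 change in hasty. miR157a-3p and miR157b-3p had 3288, 3280 and 4522 CPM in hasty low N and 6124, 5591 and 5608 CPM in hasty control, a log2 change of −0.64 in hasty against 0.32 in WT (difference −0.964, edgeR adjusted p = 0.033). The call of the difference was lost in 10 of the 12 fits that left out a library, all except those that dropped WT low N replicate 2 or replicate 3 of hasty low N, with an adjusted p up to 0.16. NovelmiRNA-66 and NovelmiRNA-70 were the others, both listed at 0 in all hasty low N libraries. NovelmiRNA-70 averaged 2391 ± 204 CPM in low N and 3976 ± 774 CPM in control in WT, and was at 0 in low N and at 2187 CPM in control in hasty. The absence of a call does not show that the other sequences changed alike in the genotypes.

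**Figure D5:**
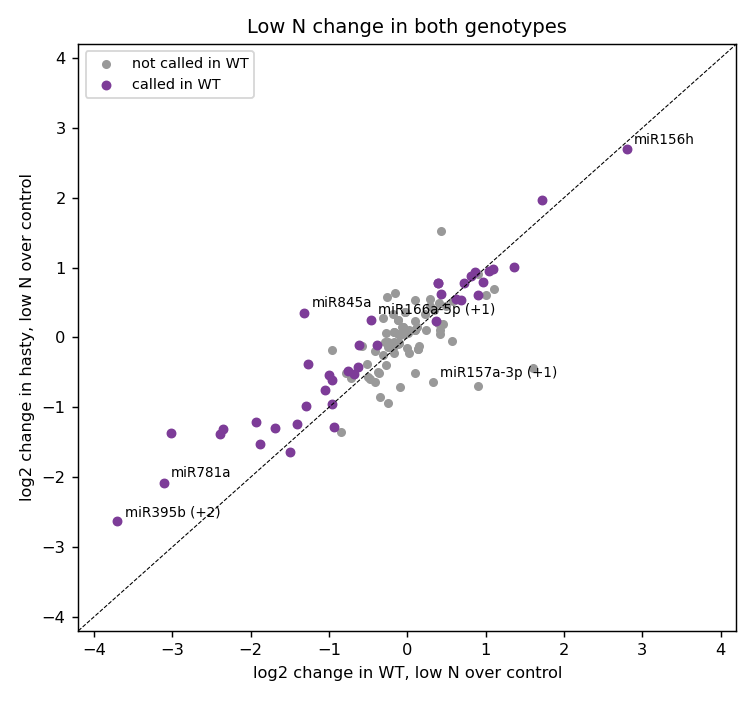
Log2 change of low N over control in WT (horizontal) and in hasty (vertical) for the 123 sequences tested and above 0 in all 12 libraries, with those called in WT in purple and the dashed line at equal change. The points lie along the line (Pearson correlation 0.845), and miR157a-3p lies below it, with a change of −0.64 in hasty against 0.32 in WT.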

How the data were processed

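The deposited table holds whole-number counts per miRNA name; it is titled TPM, but its columns sum to different totals, per the file headers and values. Trimming, alignment, counting and the way names were predicted are not given in the sources used here. Per the submitters' processing notes, mm10 is the single genome build named; that is a mouse build and does not apply to Arabidopsis. Per the labels' protocols, libraries were made by adaptor ligation and PCR, without mention of molecular identifiers, so counts cover reads and not molecules.

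Known names were matched by product name to TAIR10.1 (RefSeq), and names of 1 mature sequence were taken as 1 by their highest count in each library; predicted names with equal rows were taken as 1. Planned tests assumed TPM or counts, and counts were found. edgeR 4.0.16 in R 4.3.3 (filterByExpr, TMM, estimateDisp, glmQLFit, glmQLFTest, two-sided) was fitted to all 12 libraries with 1 coefficient per group and 8 residual degrees of freedom, adjusted over 216 sequences by Benjamini-Hochberg with a threshold of 0.05. The SE is the size of the log2 change divided by the square root of F. The hasty libraries enter that spread. The fit was tested on simulated counts.

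Named sequences were the 12 largest called changes in each direction with a mean of at least 10 CPM, above 0 in all 6 WT libraries and not overlapping; those at 0 in a group and at 20 or more counts in each library of the other; the 3 most abundant of each list; the 10 most abundant; other arms; and the smallest p of the genotype difference. Further called sequences were named after their values were seen. The members and the lists were chosen with earlier results of these data known. Alternatives were other scalings, filters and collapse rules, DESeq2 1.42.0, limma 3.58.1 on log2(CPM + 1), a replicate block, and each library left out.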

Additional observations from a re-analysis of the deposited data

Results flagged for a closer look

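A difference between the genotypes in the low N change passed edgeR's test for 3 sequences, each with the lower log2 change in hasty. For miR157a-3p and miR157b-3p the difference was −0.964 (adjusted p = 0.033). With library totals as scaling the adjusted p was 0.15, and with the replicate block 0.064. For NovelmiRNA-66 the fitted difference was −4.87 (adjusted p = 0.033) and for NovelmiRNA-70 −13.3 (adjusted p = 3.4e-07). Both were listed at 0 in all 3 hasty low N libraries, so these fitted values depend on the prior count and are no bound. NovelmiRNA-66 had 57.97, 84.8 and 112.6 CPM in hasty control libraries. Its call of the difference was lost with limma (adjusted p = 0.11) and with the replicate block (0.093). It was also lost in 8 of the 12 fits that left out a library, with an adjusted p up to 0.23 without hasty low N replicate 2. NovelmiRNA-70 had 2366, 2287 and 1908 CPM in hasty control libraries and kept its call in each alternative that gave a value, which left out the fits of known names alone and of sequences above 0 throughout. The causes were not tested.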

How the results depend on the processing

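Of the 51 called sequences, 28 (9 higher, 19 lower, 20 of them known) were called in every alternative that gave a value, and no called sequence changed direction. Calls numbered 88 with every name as its own row, of which 47 were higher, and 51 to 53 with counts of 1 sequence averaged or summed. Calls of higher sequences were 31 with median-of-ratios size factors and 40 with DESeq2, against 18. With known names alone 23 were higher and 21 lower of 125 tested, while the main fit called 12 known sequences higher and 21 lower. Leaving out a library gave 35 to 52 calls, 10 to 20 higher and 25 to 33 lower; the lowest, 35, was without WT low N replicate 1. Sequences whose change differed between genotypes numbered 6 with median-of-ratios size factors, 5 with a mean of at least 10 CPM, 6 with summed counts, 5 with every name as its own row, 1 with known names alone, 19 with DESeq2, 8 with limma, 1 with the replicate block and 1 to 5 without a library, against 3. With the replicate number as a block 35 sequences were called and 16 of the 51 were lost. Low N and control libraries of equal number deviated with correlations of −0.203, 0.15 and 0.325, and those of unequal number with −0.34 to 0.207. So few libraries cannot decide whether the numbers pair the samples.

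Among the sequences named in the text or called, signs reversed for 11 that were not called and whose reversed values were at most 0.19 in size. With median-of-ratios size factors the log2 changes were 0.0075 for miR156a-3p, 0.0025 for miR160a-5p, 0.077 for miR162a-3p, 0.088 for miR400, 0.077 for NovelmiRNA-73, 0.065 for NovelmiRNA-173 and 0.15 for miR165a-5p, and with DESeq2 0.0076, 0.0023, 0.077, 0.088, 0.077, 0.065 and 0.15 in that order. With every name as its own row they were 0.046, 0.043, 0.11, 0.15, 0.11, 0.10 and 0.19. With library totals they were −0.0016 for miR168a-5p and NovelmiRNA-39 and −0.012 for miR319a. With the most abundant sequence left out they were 0.0031 for miR162a-3p, 0.0198 for miR400, 0.0033 for NovelmiRNA-73 and 0.074 for miR165a-5p; with known names alone 0.019, 0.041 and 0.092 for miR162a-3p, miR400 and miR165a-5p. miR165a-5p was also at 0.022 with no filter, 0.039 with averaged names, 0.015 with the 6 WT libraries and 0.031 without the round-difference miR169 names. Without a library the ranges were −0.19 to 0.013 for miR162a-3p, −0.19 to 0.012 for NovelmiRNA-73, −0.037 to 0.34 for miR164c-3p, −0.13 to 0.17 for miR165a-5p, −0.0019 to 0.19 for miR319a and −0.21 to 0.034 for miR400. Signs of the other sequences were not tallied. The cause was not tested. Leaving out the miR169 names and leaving out sequences at 0 in any library were added after the data were seen; depth limits sequences below 10 CPM.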
